A study of Mus musculus with 6 samples.

Results

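The miR-191 and miR-425 cluster is a pair of microRNA hairpins that lie close together on mouse chromosome 9. Its members were all rows of the processed table named miR-191 or miR-425 once the species prefix and the isomiR tag were removed, with rows of the same sequence and the same values counted once. This gave 4 of 2704 distinct sequences, 1 for each arm of each hairpin, and 3 of the 4 had values that summed to at least 20 over the 6 libraries, as did 536 sequences in all. The cluster was selected on results of the disk comparison itself, in which the main miR-191 sequence was already known to be lower in the small-scale topography group. The values that chose it are therefore given as a description, with standard errors and no p-value.

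The small RNA came from exosomes, nanoscale vesicles that cells release, in the culture supernatant of RAW264.7 cells, an established mouse macrophage-like line. Cells of the small-scale topography group (3 libraries) were cultured on titanium disks with a micro-/nano- texture, and those of the smooth group (3 libraries) on smooth titanium disks. Both groups were described as using exosome-free medium, and no other agent was named. The paper's culture section gives a medium with fetal bovine serum and does not mention removal of serum exosomes. The design asked whether the surface under the macrophages altered the small RNA of their exosomes. The groups share 1 cell line, and nothing in the labels says whether the 3 libraries of a group came from separate cultures, so the spread between them may be technical.

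A microRNA hairpin is cut into a 5p arm and a 3p arm, and the arm loaded into an Argonaute protein guides it to messenger RNAs, mainly through the seed, bases 2 to 8 from the 5′ end. miR-191 and miR-425 are made from a shared primary transcript in mammals and are found in many tissues, blood cells among them. An isomiR is a form of a mature microRNA whose ends or bases differ from the reference.

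The mature arms of the reference are shown first, from RefSeq with the GRCm38 build, because every listed sequence is read against them. Capitals mark the seed.
mmu-miR-191-5p: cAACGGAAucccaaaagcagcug
mmu-miR-191-3p: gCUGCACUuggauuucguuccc
mmu-miR-425-5p: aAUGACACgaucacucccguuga
mmu-miR-425-3p: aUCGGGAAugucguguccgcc

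The sequences listed in the processed table follow in the DNA letters of the files, again with bases 2 to 8 in capitals, since their ends set which seed each carries.
miR-191a-5p_R-3: cAACGGAAtcccaaaagcag
miR-191a-3p_R-1_1ss21CT: gCTGCACTtggatttcgttct
miR-425-5p: aATGACACgatcactcccgttga
miR-425-3p_L+1R-1_1ss11AG: cATCGGGAatgtcgtgtccgc

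The hairpins show where the arms lie, with the RefSeq arms in capitals.
Mir191: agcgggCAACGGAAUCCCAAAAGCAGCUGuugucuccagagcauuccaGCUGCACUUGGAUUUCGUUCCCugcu
Mir425: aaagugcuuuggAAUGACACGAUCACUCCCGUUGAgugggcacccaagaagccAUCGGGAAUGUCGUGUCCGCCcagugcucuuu

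In the tags of the names, R and L give bases gained or lost at the 3′ and 5′ end, and ss gives a substitution. The names of the 4 members carry a rat prefix in the table. The miR-191-5p sequence began where the RefSeq arm begins and ended 3 nt before it, at 20 nt against 23 nt. Its seed is the reference seed. The miR-425-5p sequence was the RefSeq arm, base for base, at 23 nt. The miR-425-3p sequence began 1 nt before the RefSeq arm and ended 1 nt before it, so that bases 2 to 8 read ATCGGGA in place of the reference seed UCGGGAA. Its name carries a substitution tag, yet its 21 nt matched the mouse hairpin exactly. The miR-191-3p sequence was 1 nt shorter than the RefSeq arm and differed from the hairpin by C21T, counted from its 5′ end, and it matched no annotated mouse transcript exactly.

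**Figure D1:**
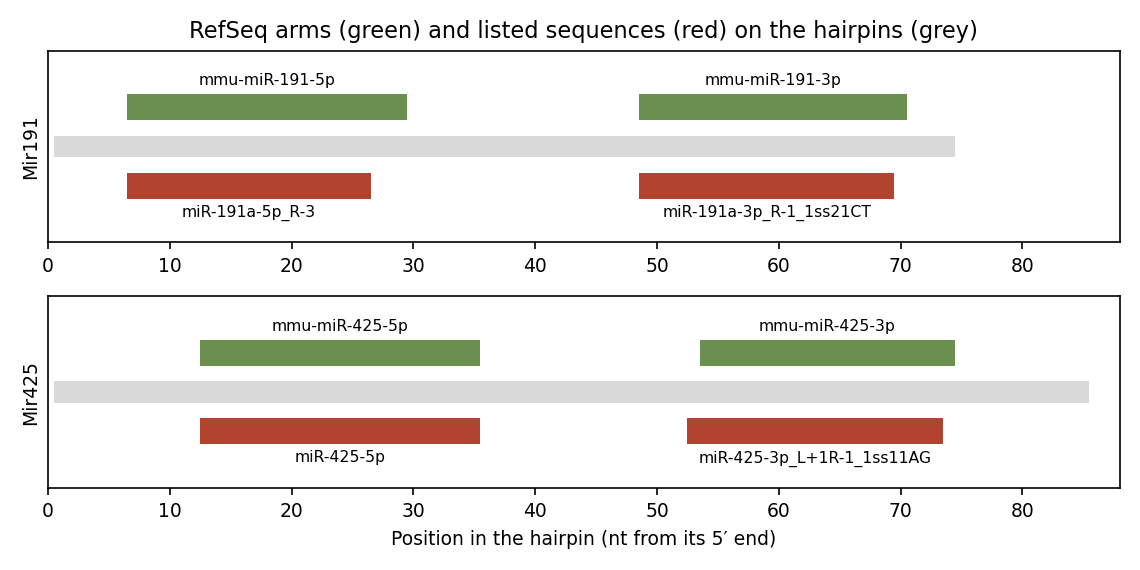
Map of the RefSeq arms (green) and the sequences listed in the processed table (red) on the Mir191 hairpin (74 nt) and the Mir425 hairpin (85 nt), in nt from the 5′ end of each hairpin. miR-191a-5p_R-3 stops 3 nt short of its reference arm, and the listed miR-425-3p sequence is displaced by 1 nt toward the 5′ end.

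Shortening of this size was not rare in the table. Of 436 distinct sequences with a miR or let name, 210 (48.2%) lacked at least 1 base at the 3′ end and 53 (12.2%) lacked 3 or more. For 343 of 380 arm names (90.3%) the table holds 1 sequence, and so it does for each arm of the cluster. The share of shortened isomiRs within an arm cannot be computed from 1 sequence, and the sum over an arm equals its 1 row. No source used here says whether a row also counts other isomiRs of its arm.

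The seeds of the cluster had few partners. Among 1738 RefSeq mouse mature microRNAs, only mmu-miR-489-3p shares the seed of miR-425-5p, and none outside the cluster shares the seed of the other arms. In the table, no other sequence shares bases 2 to 8 with a listed member. An unnamed candidate sequence carries the reference seed of miR-425-3p, and it was listed in smooth replicate 1 alone, at a normalized value of 5.78.

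On GRCm38 both hairpins are on the plus strand of chromosome 9, Mir191 at chr9:108568319-108568392 and Mir425 at chr9:108568777-108568861, with 384 nt between them. In GENCODE M21 both lie inside the single exon of the lincRNA transcript 4833445I07Rik-201 (chr9:108567533-108569174), and Mir191 lies in the intron of the transcript 4833445I07Rik-202. The annotated microRNA gene Gm24083 overlaps Mir191 on the minus strand (chr9:108568295-108568414). In RefSeq the gene Dalrd3, which encodes a protein that takes part in tRNA methylation, spans both hairpins (chr9:108567484-108572773), whereas GENCODE M21 places the start of Dalrd3 1024 nt after the end of Mir425. The 3 sequences that matched the mouse transcripts exactly matched only the lincRNA and their own hairpin. No other sequence of the table lies inside the hairpins.

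Normalized values are on the scale of the deposited table, in which most values are whole multiples of a step that differs between libraries. Read as 1 read, this step gave between 163845 and 264828 reads per library for small-scale topography and between 194510 and 604082 for smooth, summed over the distinct sequences. Between 87.7% and 92.6% of the listed values were whole multiples within 0.02 reads. Counting intervals below rest on this reading, and they cover counting error only. Of the myeloid and blood markers miR-223, miR-142, miR-150, miR-155 and miR-342, 4 of 5 were listed at least once and miR-150 was not listed. Their sum was 130 to 182 in small-scale topography and 136 to 328 in smooth. Of these markers, 2 were listed in all 6 libraries. miR-142-5p_L+2R-2 was at 107 to 123 in small-scale topography and 100 to 205 in smooth. miR-155-5p was at 10.3 to 42.0 in small-scale topography and 7.43 to 83.0 in smooth. miR-223-3p, a defining myeloid microRNA, was at 0, 20.2 and 0 in small-scale topography and at 28.9, 23.8 and 9.64 in smooth. miR-342-5p_R+4 was at 0, 7.77 and 0 in small-scale topography and at 13.2, 9.32 and 0 in smooth. Low values are rarely listed, so a 0 does not show absence. The liver microRNA miR-122 was present at 3102 to 3491 in small-scale topography and 2255 to 3726 in smooth, the summed erythroid microRNAs at 26.3 to 59.0 and 7.23 to 31.4, and the summed mesenchymal microRNAs, of which 3 of 4 were listed and miR-145 was not, at 528 to 765 and 676 to 788. Muscle microRNAs were at 0 in small-scale topography and at most 2.33 in smooth, and miR-1 and miR-206 were not listed. The part of these markers, and of depth, in the values of the cluster was not tested.

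miR-191-5p is the arm of miR-191 that dominates in most mammalian cells. In small-scale topography, miR-191a-5p_R-3 had normalized values of 319, 270.3 and 293 in replicates 1, 2 and 3. In smooth, its normalized values were 529, 473 and 371. All 3 small-scale topography libraries were below all 3 smooth libraries, with the nearest pair at 319 and 371. The counting intervals of that pair overlapped, from 280 to 361 for small-scale topography replicate 1 and from 331 to 415 for smooth replicate 3. Smooth replicate 3, whose depth lay within the range of the small-scale topography libraries, had the lowest smooth value. Small-scale topography replicate 1, the library of the lowest depth, had the highest value of its group. Smooth replicate 2, the library of the greatest depth, was below smooth replicate 1. The part of depth in these values was not tested. The values of miR-191a-5p_R-3 stood for 174 to 279 reads in small-scale topography and 308 to 1015 reads in smooth.

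The mean normalized value of miR-191a-5p_R-3 was 294 ± 24.3 (SD, n = 3) in small-scale topography and 458 ± 80.2 (SD, n = 3) in smooth. On the scale of log2(value + 1) the difference was -0.62 with a standard error of 0.28 from limma. As a percentage of the library total it was 0.151%, 0.0965% and 0.105% in small-scale topography and 0.194%, 0.168% and 0.158% in smooth. The groups were separate on this scale too, by the narrow gap between 0.151% and 0.158%. It was the 57th most abundant of the 2704 distinct sequences over the 6 libraries.

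miR-191-3p is the arm of the same hairpin that is the less abundant one in most cells. miR-191a-3p_R-1_1ss21CT was listed in smooth replicate 2 alone, at a normalized value of 3.26 or 7 reads, and at 0 in the other 5 libraries. In smooth replicate 2 the 3p sequence was 0.685% of the summed listed miR-191 value. Smooth replicate 2 had the lowest value of 1 read. The table rarely lists values under about 5 reads (12 to 44 of the 503 to 1062 values listed per library), so a 0 does not show absence, and no fold is given.

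miR-425-5p carries a seed that only miR-489-3p shares. Its normalized values were 140, 110.3 and 119 in small-scale topography. In smooth they were 116, 158 and 104. The groups overlapped, and the highest and the lowest of the 6 values were both in smooth. The means were 123 ± 15.4 (SD, n = 3) and 126 ± 28.3 (SD, n = 3), and the log2 difference was -0.01 with a standard error of 0.36. With 71 to 338 reads per library, the 95% counting interval ran from 86.1 to 139 in small-scale topography replicate 2, the library with the fewest reads of this sequence.

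miR-425-3p is the opposite arm of the miR-425 hairpin. Its listed sequence had a higher value than the listed 5p sequence in all 6 libraries. miR-425-3p_L+1R-1_1ss11AG had normalized values of 189, 306 and 231 in small-scale topography. Its normalized values in smooth were 171, 323 and 269. The groups overlapped almost completely, with replicate 1 the lowest and replicate 2 the highest library on either disk. The means were 242 ± 59.3 (SD, n = 3) and 254 ± 77.3 (SD, n = 3), and the log2 difference was -0.05 with a standard error of 0.32.

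**Figure D2:**
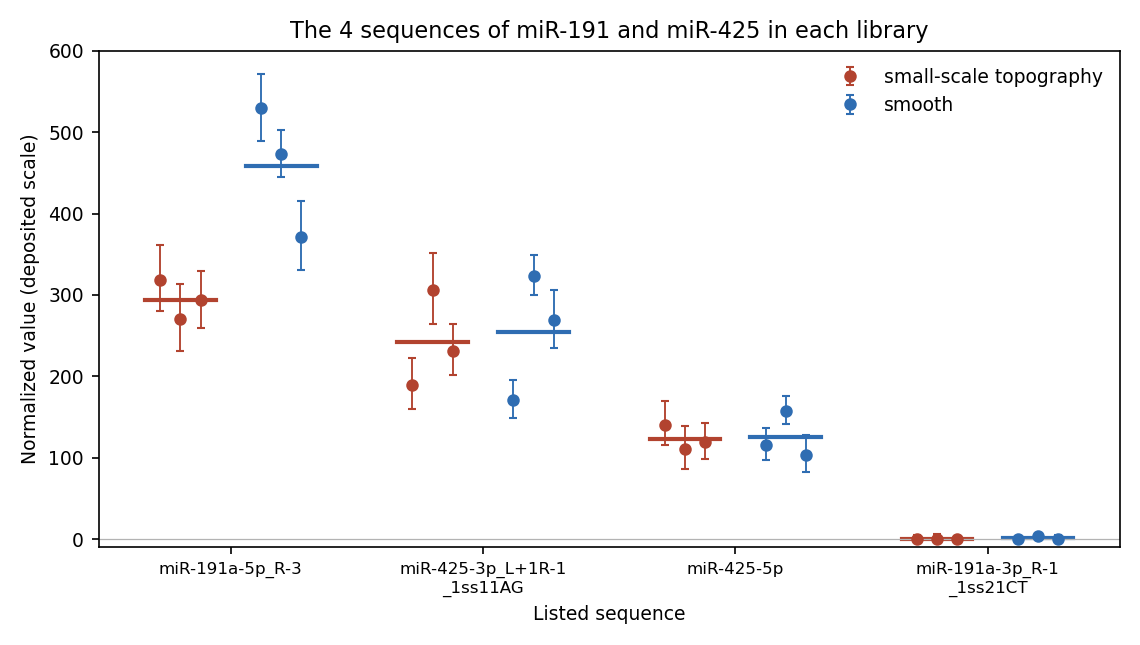
Normalized value (y axis, scale of the deposited table) of the 4 cluster sequences (x axis) in each of the 3 small-scale topography libraries (red) and 3 smooth libraries (blue). Points are libraries in the order of their replicate numbers, vertical bars are 95% counting intervals and horizontal bars are group means; only miR-191a-5p_R-3 has groups that do not overlap, at 270.3 to 319 against 371 to 529.

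Ratios between the arms of a library do not depend on how that library was scaled. The ratio of miR-191-5p to miR-425-5p was 2.28, 2.45 and 2.47 in small-scale topography. In smooth the same ratio was 4.58, 3.003 and 3.58. Every smooth library had a higher ratio than every small-scale topography library, with means of 3.72 ± 0.797 and 2.40 ± 0.107 (SD, n = 3 each). This ratio uses the miR-191 values on which the cluster was selected and is likewise a description.

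Against the 3p arm of miR-425 the groups were not separate. The ratio of miR-191-5p to miR-425-3p was 1.69, 0.883 and 1.27 in small-scale topography and 3.10, 1.46 and 1.38 in smooth. Smooth replicate 1 stood above the other 5 libraries, and small-scale topography replicate 1 was higher than the other 2 smooth libraries. The share of the 3p sequence in the sum of the 2 listed miR-425 sequences was 57.4%, 73.5% and 66.1% in small-scale topography. In smooth it was 59.7%, 67.2% and 72.2%. The mean shares were 65.7% ± 8.05 and 66.4% ± 6.30 (SD, n = 3 each), so the mean difference was smaller than the spread between replicates.

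**Figure D3:**
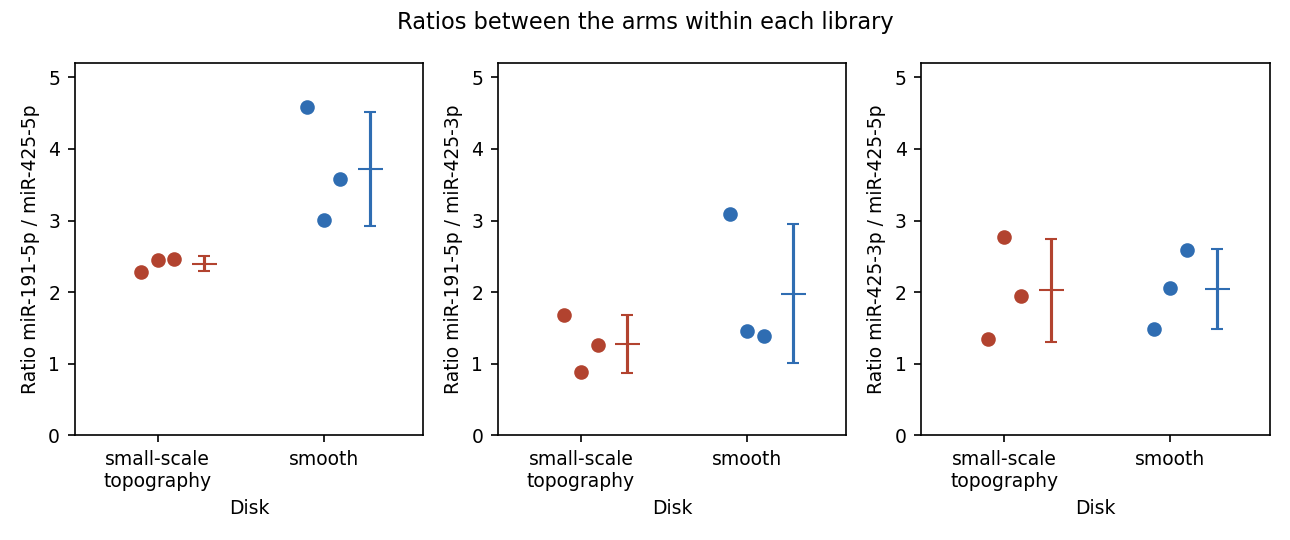
Ratios between arms within each library for small-scale topography (red) and smooth (blue), with group mean and SD beside the 3 libraries of each group. The ratio of miR-191-5p to miR-425-5p is 2.28 to 2.47 against 3.003 to 4.58, and the other ratios overlap between the groups.

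miR-191 made up 49.2%, 39.4% and 45.6% of the summed cluster in small-scale topography. In smooth it made up 64.9%, 49.8% and 49.9%. The nearest libraries, at 49.2% and 49.8%, were less than 1 percentage point apart. The summed normalized value of the cluster was 648, 687 and 643 in small-scale topography and 816, 957 and 744 in smooth. As a percentage of the library total the sums overlapped, at 0.308%, 0.245% and 0.231% against 0.2996%, 0.340% and 0.317%.

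The whole table gives the background for these values. At an adjusted p under 0.05 from limma with Benjamini-Hochberg adjustment, 0 of 536 sequences (0%) were called, with 0.823 as the lowest adjusted value. At an unadjusted p under 0.05, 12 sequences (2.24%) were called, 9 of them lower in small-scale topography (1.68%). The groups did not overlap for 37 sequences (6.90%), and 27 of these (5.04%) were lower in small-scale topography, 1 of them the cluster sequence miR-191a-5p_R-3. Since the cluster was chosen with this comparison known, nothing is read from this count. Over all 536 sequences the median log2 difference was 0.01, with quartiles at -0.59 and 0.66, and 265 (49.4%) were negative.

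MicroRNAs encoded in introns of protein-coding genes were set beside the cluster by a list of 9, each represented by its most abundant sequence. In this list, 8 of 9 log2 differences were below 0, against 49.4% of all tested sequences, and the median was -0.12. The sequences of the list are not independent, since some share an intron, so nothing is read from this count. In the limma fit, 0 of 9 had an unadjusted p under 0.05, and 0 of 9 had groups that did not overlap. The miR-26 family, whose genes lie in introns of the Ctdsp phosphatase genes, held the lowest values, with miR-26b-5p_R+1 at -0.69 (standard error 0.47) and miR-26a-5p at -0.34 (standard error 0.45). The microRNAs of the Mcm7 intron, an established cell-cycle cluster, were at -0.12 for miR-106b-3p_R-1, -0.03 for miR-93-5p and -0.03 for miR-25-3p. Under the Smc4 intron the list held miR-15b-5p_R-1 at -0.20 and miR-16-5p at -0.22. The values do not show which gene a mature sequence came from. From the Pank introns, miR-103-3p was at -0.05 and miR-107-3p_R-5 at 0.22, the latter shortened so that its letters are also the start of miR-103-3p. The difference between miR-191-5p and this list was not tested.

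**Figure D4:**
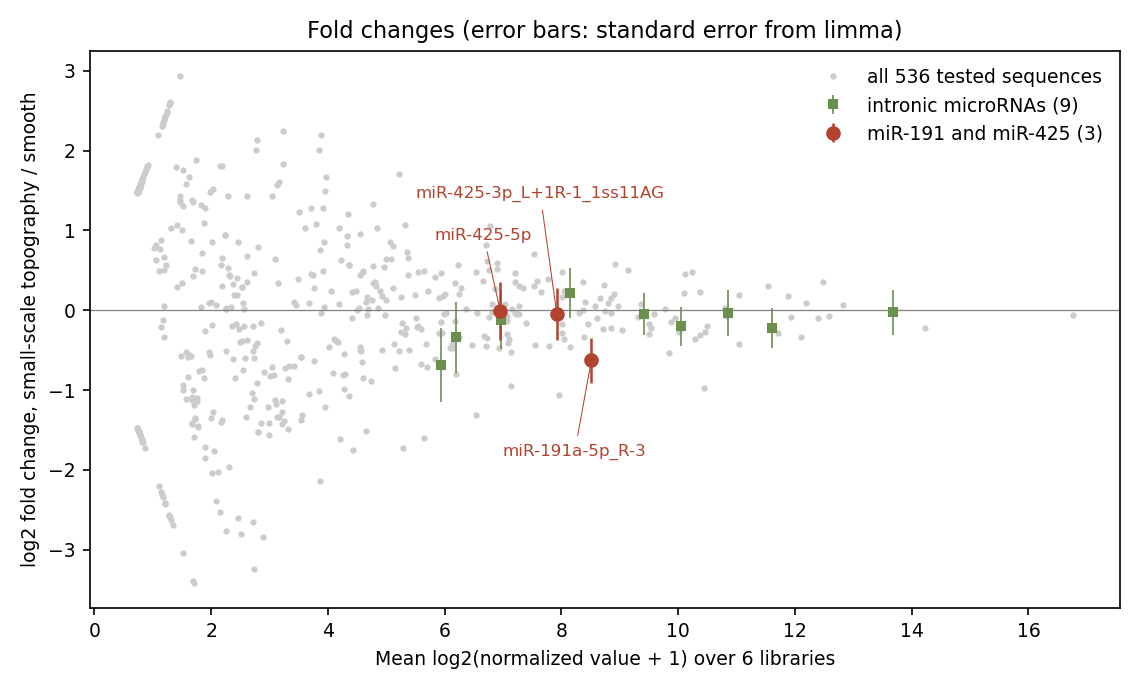
log2 difference between small-scale topography and smooth (y axis) against the mean log2(value + 1) over 6 libraries (x axis), for all 536 tested sequences (grey), 9 sequences of intronic microRNAs (green) and the 3 tested sequences of the cluster (red). Bars are standard errors from limma; miR-191a-5p_R-3 lies at -0.62 and both miR-425 sequences near 0.

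The pattern over the 6 libraries was compared with that of 249 sequences listed in all of them, by the root mean square difference of log2(value + 1) after centring each sequence on its mean. For miR-191a-5p_R-3 the nearest were miR-24-2-5p_R-1 at 0.0986, miR-328a-3p at 0.115 and miR-32-5p_R-1 at 0.123, against a median of 0.593. These 3 sequences were also lower in every small-scale topography library than in any smooth library, which a likeness to miR-191a-5p_R-3 entails. miR-24-2-5p_R-1 had normalized values of 777, 727 and 775 in small-scale topography and 1326, 1245 and 816 in smooth. Its log2 difference was -0.54 with a standard error of 0.26.

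Among the 249 sequences, miR-425-5p came 43rd in likeness to miR-191a-5p_R-3, at 0.354, and miR-425-3p_L+1R-1_1ss11AG came 108th, at 0.543. The nearest to miR-425-5p were miR-23b-3p_R-1 at 0.139, miR-22-3p at 0.150 and miR-1839-5p at 0.175, against a median of 0.537. The 2 arms of miR-425 differed from each other by 0.380. These distances rest on 6 libraries that share their scaling, and those from miR-191a-5p_R-3 include the difference on which the cluster was selected.

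The size of the log2 difference moved with the libraries kept. For miR-191a-5p_R-3 it ran from -0.77 without smooth replicate 3 to -0.51 without smooth replicate 1, and its sign could not turn in these fits, since its groups do not overlap. Its standard error was 0.28, and 0.39 either with no filter on low values or without the mean-variance trend. For miR-425-3p_L+1R-1_1ss11AG the log2 difference ranged from -0.31 to 0.15 as single libraries were left out. For miR-425-5p it ranged from -0.14 to 0.16, and it was above 0 under each of the 3 rescalings of the libraries. The sign for both miR-425 sequences thus depended on the libraries kept.

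**Figure D5:**
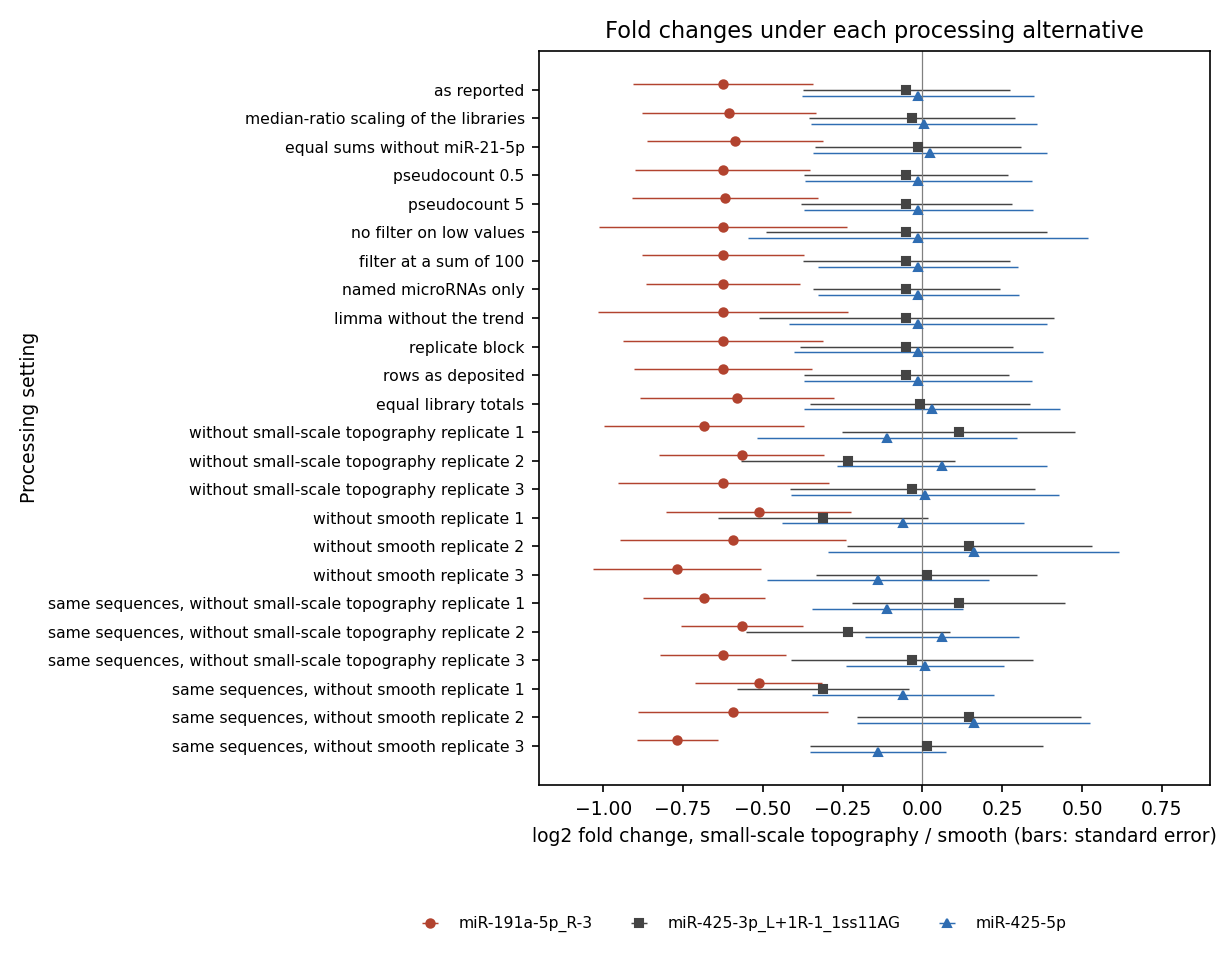
log2 difference between small-scale topography and smooth (x axis, bars are standard errors) for the 3 tested cluster sequences under the fit as reported and each of 23 alternatives (y axis). miR-191a-5p_R-3 lies between -0.77 and -0.51, and the miR-425 sequences fall on either side of 0. Settings of the filter, variance model, block or set of sequences change only the standard error. The last 6 settings keep the same sequences in every fit and were added after seeing the data. They repeat the log2 differences of the other fits with a library left out.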

How the data were processed

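Small RNA libraries were made by the authors with a TruSeq kit and sequenced on an Illumina HiSeq instrument. After adapter trimming, inserts of 18 to 26 nt were kept, matches to messenger RNA, Rfam and repeat sequences were discarded, and ACGT101-miR named what remained. The authors deposited the result as normalized signal, with 1 value for each sequence in each library. Not given in the sources used here are its scaling factor, the software version, the miRBase release and the build.

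Values were compared with limma 3.58.1 in R 4.3.3 (eBayes with a mean-variance trend) on log2(value + 1), 3 libraries against 3 with no covariate, over 536 distinct sequences with a summed value of 20 or more, and two-sided p-values were adjusted by Benjamini-Hochberg at 0.05. Fold changes on this scale understate those of low values. The script was tested on simulated data. The members, the comparison list and the markers were chosen with earlier results of these data known. Named sequences were the members, the most abundant sequence of each listed intronic microRNA, and the 3 most alike to miR-191-5p and to miR-425-5p. Replicate numbers were not taken as pairs of samples. Alternatives changed the scaling, pseudocount, filter, variance model, set of sequences, block and libraries. All 4 members were placed on their hairpin and read against its RefSeq arm (GRCm38), to which 1 was identical.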

Additional observations from a re-analysis of the deposited data

How the results depend on the processing

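At an unadjusted p under 0.05, limma called 12 of 536 sequences. With no filter on low values it called 36, out of up to 2704 distinct sequences, and with a filter at a sum of 100 it called 7, out of fewer than 536. These counts have unlike denominators and do not compare directly. With 1 library left out this count ran from 6 to 30 with the filter applied again, and from 7 to 38 with the same sequences in every fit, an alternative added after seeing the data. Without small-scale topography replicate 2 it was 30 and without smooth replicate 3 it was 29 (filter applied again). At an adjusted p under 0.05, limma called 0 sequences, and leaving out 1 library gave 0 to 1, the 1 without smooth replicate 3 with the filter applied again. The filters change how many sequences are tested, and the cause of the changes was not tested. The replicate block gave 18 sequences at an unadjusted p under 0.05 and 0 at an adjusted p under 0.05. The numbers were not taken as pairs. The deviations of libraries with the same number correlated at -0.03, 0.10 and 0.02, and not every library correlated best with its own number. With 3 libraries per group, these correlations cannot exclude pairing. The smooth minus small-scale topography difference in the ratio of miR-191-5p to miR-425-5p was 1.32 and ran from 0.894 to 1.68 with 1 library left out, with a sign that was fixed because the groups do not overlap. The same difference in the share of the cluster held by miR-191 was 10.1 percentage points, and 5.12 without smooth replicate 1. Rescaling moved the median log2 difference of all sequences from 0.01 to at most 0.06. The log2 differences of the cluster sequences and the shares within the cluster moved by less than the SD pooled over both groups in every alternative run. This was fixed in advance for the fits with 1 library left out, since leaving out 1 of 3 cannot move a group difference that far. The filters, the variance model, the block and the set of sequences left each log2 difference unchanged. Stability is therefore not read from these small moves. With 71 to 1015 reads per library behind the main sequences, counting error alone was between 3.14% and 11.9% of a value, and 3 libraries per group limit the rest. Outliers could not be tested in groups of 3.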
